A study of Mus musculus with 40 samples.

Results

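The genes described here encode the ligands of the TGF-beta family, which are the TGF-betas, the activin and inhibin subunits, the bone morphogenetic proteins (BMPs), the growth differentiation factors (GDFs), Nodal, the Lefty proteins, myostatin and anti-Müllerian hormone. They were chosen by symbol, with earlier results of these data known. Of the 24062 genes in the count table, 34 carried a symbol of this kind, and Bmp1, which is a protease, and Gdf15, which signals through a receptor of another family, were set aside, leaving 32 genes. RNA-Seq was performed on primary mouse embryonic fibroblasts (MEFs) at passage 3 from embryos of 13.5 days post coitum with a mixed C57BL/6J-129P2OlaHsd background. Sall2, which encodes a zinc finger transcription factor, was intact (WT), lost on 1 allele (Het) or lost on both (KO). Cells were left untreated (control) or received doxorubicin, a DNA-damaging anthracycline, at 1 µM for 16 h. Control comprised 5 libraries, from 1 WT, 1 Het and 3 KO embryos, and doxorubicin comprised 4, from the same WT and Het embryos and 2 of the KO embryos. The KO cells also carry 129P2 sequence from the stem cells in which Sall2 was targeted, on chromosome 14 around the gene and elsewhere. Per the study, a Het littermate carried the chromosome 14 variants in heterozygous form. The part of this sequence in a genotype difference cannot be told apart from the loss of Sall2. With 1 WT and 1 Het embryo, the libraries of these genotypes share their source, and p-values on genotype measure the spread between these libraries only.

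The libraries held between 15560728 and 24122414 counts. The columns for KO embryos 2 and 3 with doxorubicin were identical in all 24062 genes and were counted as 1 library, which was named KO embryo 2 because it held 0 counts over 4 Y-linked genes, against 1 in the control library of KO embryo 2 and 6397 in that of KO embryo 3. Sall2 was at 37.0 CPM (counts scaled to library size with TMM, per 1e+06) in WT control, at 24.3 in Het and at 19.1 to 23.8 in KO, and the KO to WT difference over both treatments was -0.99 ± 0.23 on the log2 scale (SE, edgeR adjusted p = 1.0). With doxorubicin the KO libraries were at 4.23 and 3.71 CPM, below Het at 8.33 and WT at 9.34, so Het and KO lay below WT in both treatments, but counts over the whole gene do not check the deletion itself. The p53 targets Cdkn1a, Mdm2 and Ccng1 were not higher with doxorubicin, with log2 fold changes of -0.64, -0.22 and -0.16 (edgeR adjusted p = 0.0144, 0.563 and 0.539), and Cdkn1a passed as lower with the embryo as a block (adjusted p = 0.000878). The 10 fibroblast markers summed to 16560 to 94270 CPM in control and 23470 to 59620 with doxorubicin, and 7 macrophage markers to 92.3 to 617 and 90.2 to 701 CPM. The summed ranges in control and doxorubicin were 17.7 to 46.0 and 35.6 to 90.6 CPM for 5 endothelial markers, 7.03 to 18.5 and 6.81 to 9.14 for 4 epithelial markers, and 89.1 to 135 and 78.5 to 114 for 5 neural and glial markers. They were 72.1 to 406 and 114 to 255 CPM for 3 cartilage markers and 58.6 to 115 and 66.1 to 135 CPM for 3 muscle markers, and no marker of these lists was at 0 in every library of a treatment. Single markers moved with doxorubicin: on the log2 scale Pdgfrb changed by -2.80, Csf1r by -1.11, Cd68 by 1.12, Emcn by 0.73, Epcam by 4.48, Krt18 by -1.59, Sox10 by -2.25 and Map2 by -1.16 (edgeR adjusted p between 0.00023 and 0.00718). With the embryo block Thy1, Emr1, Pecam1, Kdr, Cdh1, Sox9, Irf7 and Bst2 passed as higher too, and Pdgfra and Acan as lower (adjusted p between 0.000395 and 0.00847). The part of these cells in the ligand results was not tested. In these bulk samples fewer cells of a type and less RNA per cell cannot be told apart.

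The control libraries of Het embryo 1 and KO embryo 3 stood apart from the other 3. Their 10 interferon-response markers summed to 2193 and 2381 CPM against 44.8 to 61.9, their fibroblast markers to 20540 and 16560 CPM against 77180 to 94270, and their macrophage markers to 617 and 449 CPM against 92.3 to 157. With doxorubicin the interferon markers summed to 1514 CPM in Het and to 330 to 417 CPM in WT and KO. Both of these control libraries were below the other 3 in 10 of the 24 ligand genes tested (41.7%), among them Tgfb1, Tgfb2, Tgfb3, Inhba, Inhbb and Bmp4, where 36.8% of all genes tested showed that order. They were above the other 3 in 5 of 24 (20.8%), namely Amh, Gdf11, Gdf9, Inha and Nodal, against 38.2% of all genes. The part of this state in the results was not tested, and counts are given with and without both embryos.

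Most ligands of this family are made as precursors that pair through a cysteine, are cut by furin-like proteases, and bind pairs of type I and type II receptor kinases on the target cell. TGF-betas, activins and Nodal signal mainly through Smad2 and Smad3, and BMPs and many GDFs through Smad1, Smad5 and Smad9, with Smad4 as the common partner. In fibroblasts TGF-beta is known for driving matrix genes, and secreted antagonists such as Noggin, Chordin, Gremlin and Follistatin hold BMPs and activins away from their receptors.

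Promoters from RefSeq (GRCm38.p6, from 250 bases before the transcription start to 50 bases from it) were at hand for 21 of the 32 genes, among them 7 of the 13 that changed with doxorubicin. Printed are those of Nodal and Bmp8a, which had the largest rises among these 7, and of Inhba and Bmp5, the genes that fell, so that genes moving in opposite directions can be read side by side. Capitals mark 3 motifs searched on both strands. TATAAA was held by 13.6% of the 32851 promoters of the same length. GGGCGG was held by 35.7% of them. The share with CCAAT was 37.4%. These motifs do not overlap one another in the 4 windows, apart from the pair of GGGCGG matches in Bmp8a, which share a base.
Nodal (chr10:61417722-61418021, plus strand): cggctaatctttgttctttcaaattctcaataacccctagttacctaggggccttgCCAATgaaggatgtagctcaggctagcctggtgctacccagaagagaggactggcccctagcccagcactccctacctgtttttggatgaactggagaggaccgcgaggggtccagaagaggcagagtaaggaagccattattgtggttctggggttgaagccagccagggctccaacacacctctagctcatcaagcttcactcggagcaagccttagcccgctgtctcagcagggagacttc
Bmp8a (chr4:123343203-123343502, minus strand): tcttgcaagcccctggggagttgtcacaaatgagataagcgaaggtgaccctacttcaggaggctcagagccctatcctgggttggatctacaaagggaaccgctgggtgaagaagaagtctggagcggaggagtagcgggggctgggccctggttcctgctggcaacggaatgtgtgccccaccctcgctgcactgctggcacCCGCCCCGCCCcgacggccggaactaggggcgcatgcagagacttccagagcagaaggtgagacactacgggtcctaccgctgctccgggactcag
Inhba (chr13:16011601-16011900, plus strand): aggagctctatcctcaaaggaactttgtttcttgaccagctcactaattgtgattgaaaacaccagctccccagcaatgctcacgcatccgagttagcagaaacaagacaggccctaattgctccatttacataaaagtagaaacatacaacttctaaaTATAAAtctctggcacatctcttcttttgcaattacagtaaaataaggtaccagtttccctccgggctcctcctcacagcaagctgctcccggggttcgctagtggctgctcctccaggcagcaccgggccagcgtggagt
Bmp5 (chr9:75775115-75775414, plus strand): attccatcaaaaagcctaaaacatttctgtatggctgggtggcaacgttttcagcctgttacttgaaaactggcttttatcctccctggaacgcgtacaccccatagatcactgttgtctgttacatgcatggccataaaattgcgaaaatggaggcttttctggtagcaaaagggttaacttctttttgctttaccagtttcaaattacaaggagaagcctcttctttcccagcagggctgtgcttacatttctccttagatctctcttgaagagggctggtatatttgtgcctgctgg
Nodal held a CCAAT that began 194 bases before the start, Bmp8a held GGGCGG on the opposite strand 46 and 41 bases before it, Inhba held a TATAAA 91 bases before it, and Bmp5 held none of the 3 motifs in this window. G and C made up 54.0% of the Nodal window, 62.0% of Bmp8a, 47.7% of Inhba and 43.3% of Bmp5, with a median of 52.7% over all promoters. CG pairs numbered 5, 15, 7 and 4 in the same order, against 27 in Bmp6, 23 in Bmp8b and 26 in Gdf7, the other members that rose and had a promoter in the table. The median over all promoters was 7. A match is a description of the letters and no evidence of binding.

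Untreated MEFs expressed few of the ligands at a high level. Per length of exon (RPKM, CPM per kb), Tgfb3 led in control at 190 ± 98.7 RPKM (SD, n = 5), followed by Inhba at 37.99 ± 11.3, Bmp4 at 18.9 ± 6.73, Tgfb1 at 18.6 ± 6.52, Tgfb2 at 14.8 ± 6.19 and Inhbb at 13.0 ± 6.03 RPKM. The lowest library of Tgfb3 lay above the highest of Inhba. The lowest library of Inhba, at 25.18 RPKM, lay above the highest of Bmp4, Tgfb2 and Inhbb and within the range of Tgfb1, and Bmp4, Tgfb1, Tgfb2 and Inhbb lay within 1 SD of each other. Gdf11, Inha, Gdf6 and Bmp5 came next at 5.94 ± 1.75, 3.07 ± 2.48, 2.24 ± 1.76 and 1.24 ± 1.00 RPKM, and every other ligand had a mean under 1 RPKM. With doxorubicin Tgfb3 was still first at 81.0 ± 6.30 RPKM (SD, n = 4). It was followed by Tgfb1 at 26.2 ± 6.98, Inhbb at 25.01 ± 7.12, Tgfb2 at 22.3 ± 6.04 and Bmp4 at 21.9 ± 4.75 RPKM, which lay within 1 SD of each other, and Inhba, at 10.1 ± 1.52 RPKM, had moved from the second place to the sixth. Bmp2 was seventh at 9.45 ± 1.35 RPKM, within 1 SD of Inhba, from the 16th place in control at 0.266 ± 0.0707 RPKM. Of the 32 ligands 20 had a mean under 1 CPM in control and 8 with doxorubicin. Lengths are those of the joined exons in GENCODE, and 12 ligand genes overlap another annotated gene (Bmp4, Bmp5, Bmp6, Bmp8a, Bmp8b, Gdf1, Gdf5, Inhba, Inhbc, Inhbe, Tgfb2 and Tgfb3), whose reads may have been set aside or shared.

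**Figure D1:**
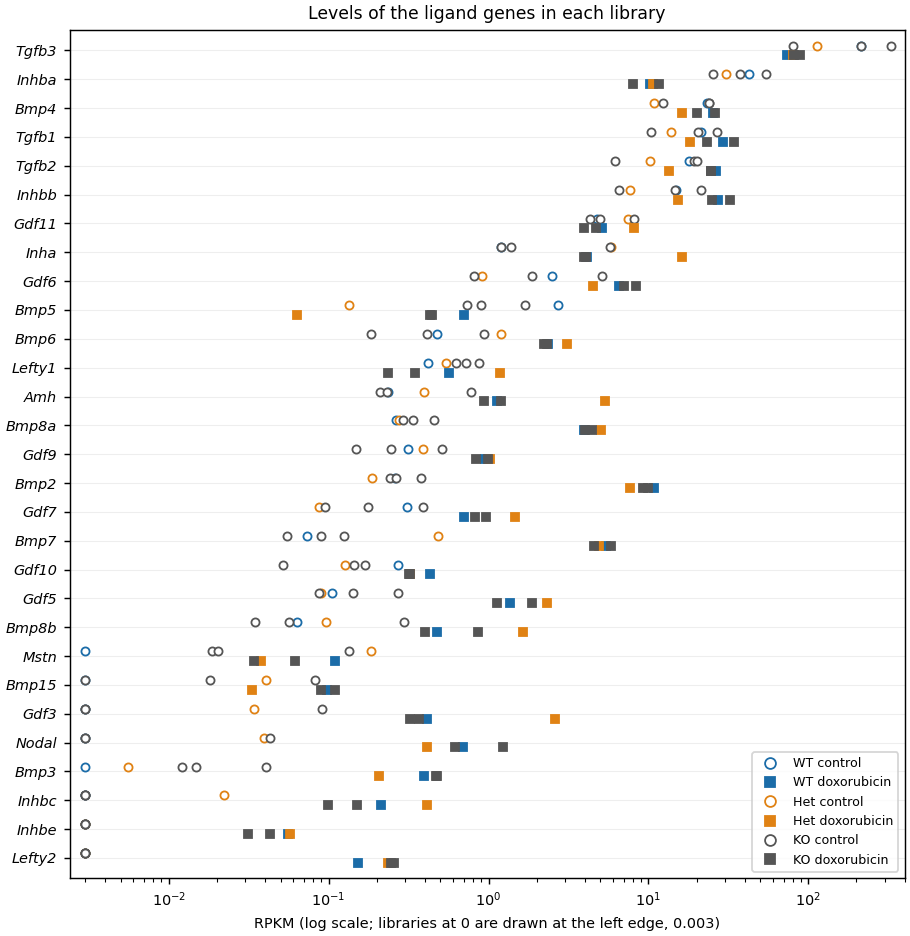
RPKM on a log axis of the 29 ligand genes with more than 3 counts in a library, ordered by their mean in control, with 1 point per library (open circles, control, n = 5; filled squares, doxorubicin, n = 4; blue WT, orange Het, grey KO). The squares of Bmp2, Bmp7, Bmp8a and Gdf5 lie to the right of all circles of the same gene, and those of Inhba lie to the left.

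The make-up of the ligand transcripts shifted away from Tgfb3 and Inhba. Together these genes took 73.6, 70.2, 78.3, 73.2 and 65.8% of the summed RPKM of the 32 genes in the control libraries of WT, Het and KO embryos 1, 2 and 3, and 35.1, 41.2, 38.2 and 39.0% in the doxorubicin libraries of WT, Het and KO embryos 1 and 2. Doxorubicin lay below control in every library. Among the BMP genes, Bmp4 took 81.7 to 89.2% of the summed RPKM in control and 41.6 to 53.5% with doxorubicin, and Bmp2 took 0.891 to 2.70% and 19.8 to 21.9%. The sum over the BMP genes was 13.2 to 27.1 RPKM in control and 38.8 to 49.8 RPKM with doxorubicin. These shares rest on values that are tested gene by gene below and carry no test of their own.

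**Figure D2:**
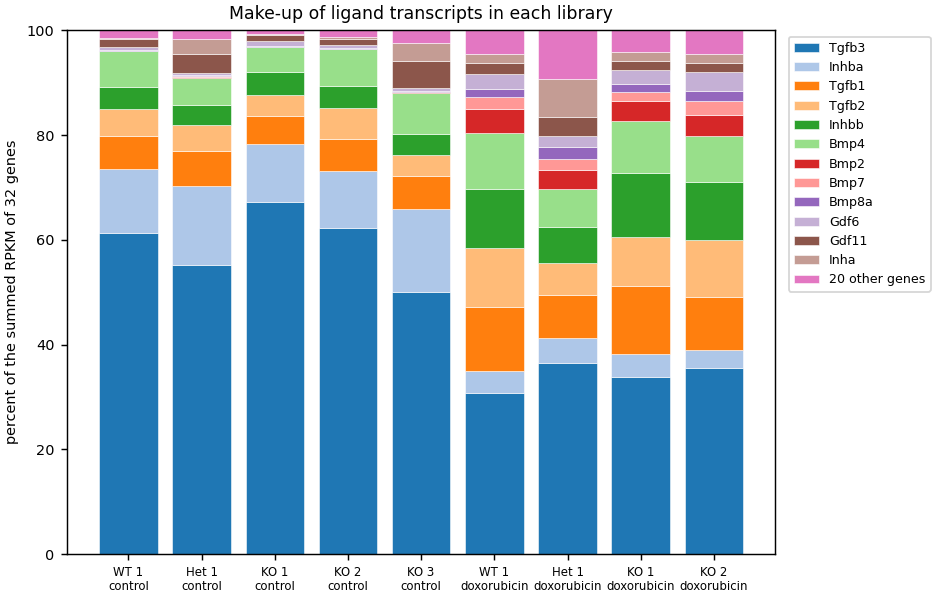
Share of each ligand gene in the summed RPKM of all 32 genes (percent, stacked to 100) in the 5 control and 4 doxorubicin libraries. Tgfb3 and Inhba at the bottom of the bars take 65.8 to 78.3% in control and 35.1 to 41.2% with doxorubicin.

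The effect of doxorubicin was tested over all 9 libraries with genotype in the model. Of the 32 ligand genes 24 passed the filter on low counts, and 11 of them rose and 2 fell at an adjusted p under 0.01, where 21.9% of all 14883 genes tested rose and 20.2% fell. The median log2 fold change was 1.61 over the 24 genes and -0.02 over all genes. Genes that are near 0 in control pass such a filter only through the doxorubicin libraries: 12 of the 24 had a mean under 1 CPM in control and 10 of these rose, and 66.5% of the 2020 tested genes of this kind rose. The counts therefore say little of the family as a whole, and the values of each gene follow. All doxorubicin libraries lay above all control libraries in 13 of the 24 genes and below them in 1, against 24.4% and 23% of all genes tested. The 13 were the 12 genes under 1 CPM in control and Bmp6. The filter favours this order in such genes, and their share over all low genes was not counted, so this count too says little of the family.

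With the embryo as a block, which compares the treated and untreated cells of the same embryo, 16 ligand genes rose and 3 fell, against 30.6% and 28.8% of all genes. Without Het embryo 1 and KO embryo 3, 19 ligand genes passed, as did 67.8% of all genes. Values below are in CPM and are given in the order WT, Het and KO embryos 1, 2 and 3 for control, and WT, Het and KO embryos 1 and 2 for doxorubicin. Fold changes are log2 of doxorubicin over control with their SE, and adjusted p-values are from edgeR with Benjamini-Hochberg adjustment over all genes tested.

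**Figure D3:**
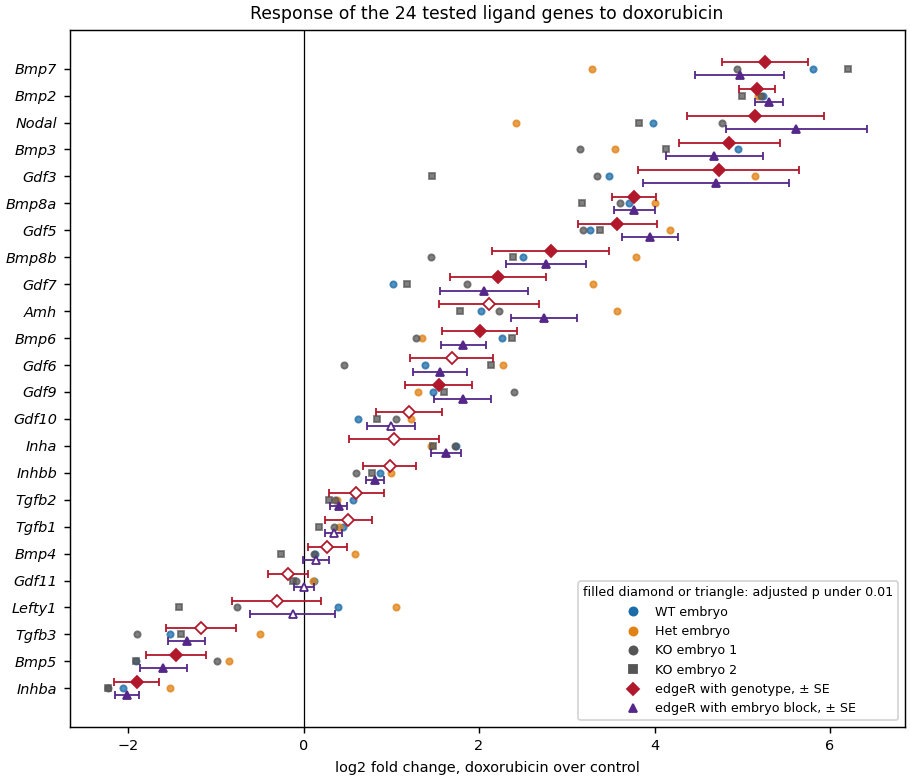
Log2 fold change with doxorubicin of the 24 tested ligand genes, from the model with genotype (red diamonds, ± SE) and with the embryo as a block (purple triangles, ± SE), filled where the adjusted p was under 0.01, with the ratio within each of the 4 embryos as small points. Ratios within an embryo are of log2 CPM with a prior count of 2, which pulls those of genes near 0 towards 0. Bmp7, Bmp2, Nodal, Bmp3 and Gdf3 are at the top, and Inhba and Bmp5 are at the bottom.

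None of the 3 TGF-betas passed in the model with genotype, and with the embryo block Tgfb3 fell and Tgfb2 rose. Tgfb3 (chr12:86056745-86079041) was at 718, 383, 1120, 721 and 270 CPM in control and at 249, 272, 301 and 273 CPM with doxorubicin. The level was lower with doxorubicin in 4 of 4 embryos, while the untreated KO embryo 3 overlapped the treated range. In the model with genotype the log2 fold change was -1.17 ± 0.40 (adjusted p = 0.0342), and with the embryo block it was -1.33 ± 0.21 and passed (adjusted p = 0.000769). The call also depended on KO embryo 3, without which the adjusted p was 0.000482. Tgfb3 overlaps Ttll5 on the opposite strand (positions in GRCm38).

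Tgfb2 was at 104, 59.3, 111, 117 and 36.0 CPM in control and at 154, 77.5, 143 and 143 CPM with doxorubicin. It was higher with doxorubicin in 4 of 4 embryos, but Het with doxorubicin lay within the control range. The log2 fold change of 0.60 ± 0.31 did not pass (adjusted p = 0.136), and passed with the embryo block at 0.40 ± 0.09 (adjusted p = 0.00597) and without KO embryo 3 (adjusted p = 0.00379). Tgfb1, the form most studied in fibrosis, was at 108, 69.7, 135, 104 and 52.1 CPM in control and at 147, 91.9, 173 and 117 CPM with doxorubicin. The groups overlapped, all 4 embryos were higher with doxorubicin, and the log2 fold change was 0.51 ± 0.27 (adjusted p = 0.137) and 0.34 ± 0.10 with the embryo block (adjusted p = 0.0123). The ratio of Tgfb3 to Tgfb1 in RPKM was 7.73 to 12.3 in control and 2.52 to 4.41 with doxorubicin.

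Of the subunits of activins and inhibins, Inhba (chr13:16011851-16031621), whose dimer is activin A, fell, and with the embryo block Inhbb and Inha rose. Inhba was at 271, 195, 348, 239 and 161 CPM in control and at 65.3, 67.8, 73.9 and 51.0 CPM with doxorubicin. Every treated library lay below every untreated one, and the log2 fold change was -1.90 ± 0.26 (adjusted p = 0.000416). The ratios within WT, Het, KO embryo 1 and KO embryo 2 were -2.05, -1.53, -2.23 and -2.22 on the log2 scale. The call held without any 1 embryo (adjusted p between 1.44e-05 and 0.00869). An antisense gene, B230303A05Rik, overlaps Inhba.

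Inhbb, the subunit of activin B, was at 63.7, 32.6, 90.7, 62.0 and 27.9 CPM in control and at 116, 65.3, 138 and 107 CPM with doxorubicin. It was higher in 4 of 4 embryos, with Het with doxorubicin within the control range. Its log2 fold change was 0.98 ± 0.30 (adjusted p = 0.0216), and it passed with the embryo block at 0.81 ± 0.11 (adjusted p = 0.000269) and without KO embryo 3 (adjusted p = 0.00093). The RPKM of Inhba was 2.56 to 3.99 times that of Inhbb in every control library and 0.319 to 0.691 times with doxorubicin, so the order of both subunits turned in all 4 embryos.

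Inha, the alpha subunit that makes an inhibin when paired with either beta subunit, was at 1.76, 8.60, 1.76, 2.04 and 8.46 CPM in control and at 6.11, 23.8, 6.02 and 5.82 CPM with doxorubicin. Het and KO embryo 3 were the high libraries in control, within the treated range, and Het was high with doxorubicin. The fitted log2 fold change was 1.03 ± 0.51 (adjusted p = 0.116), while the ratios within the embryos were 1.74, 1.46, 1.72 and 1.47. With the embryo block the change was 1.62 ± 0.17 and passed (adjusted p = 9.08e-05), as it did without KO embryo 3 (adjusted p = 2.5e-05). Inhbc and Inhbe, the subunits best known from liver, were near 0. Inhbc had 1 count in all control libraries together and 32 with doxorubicin, a ratio of 42.2 (95% exact interval 7.05 to 1720, counting error only). Inhbe had 0 counts in every control library and 6, 6, 3 and 5 with doxorubicin, at least 8.79-fold higher against a floor of 3 counts over all control libraries. Neither passed the filter, and the exact permutation test of both gave p = 0.0159, the smallest that 5 against 4 libraries allow (two-sided). This test takes the libraries as independent, although 4 embryos gave libraries to both treatments. A permutation within these embryos could not reach so small a p.

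**Figure D4:**
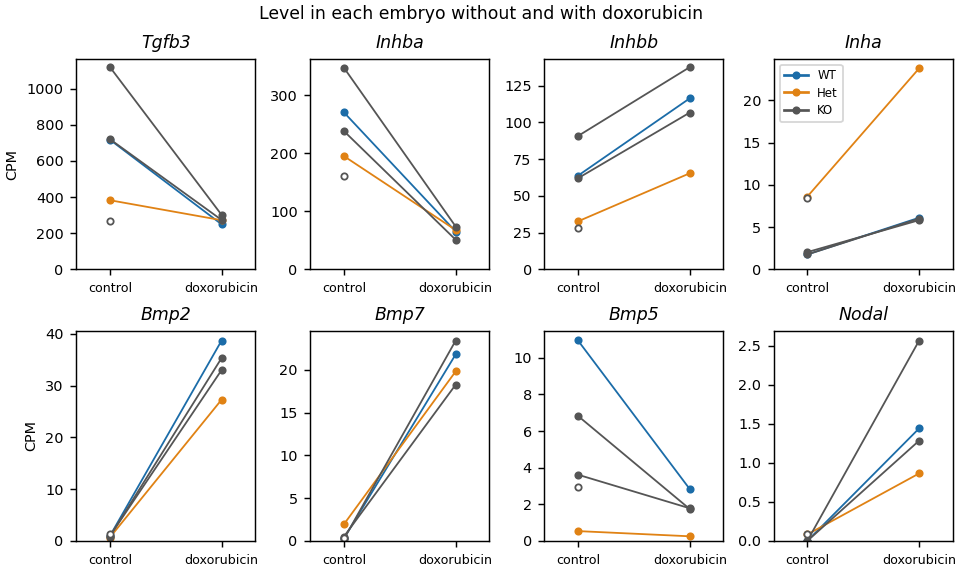
CPM of 8 ligand genes in each embryo in control and with doxorubicin, joined by a line where the embryo has both (blue WT, orange Het, grey KO; the open point is KO embryo 3, control only). The lines of Inhba, Tgfb3 and Bmp5 go down in all 4 embryos and those of Inhbb, Inha, Bmp2, Bmp7 and Nodal go up.

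Among the BMPs with a mean over 10 CPM in either treatment, Bmp2 and Bmp7 had the largest changes. Bmp2 (chr2:133552159-133562885), an inducer of bone and cartilage, was at 0.929, 0.662, 0.854, 0.936 and 1.35 CPM in control and at 38.7, 27.3, 35.3 and 33.0 CPM with doxorubicin. Treated and untreated libraries were far apart, and the log2 fold change was 5.17 ± 0.21 (adjusted p = 3.17e-06). The ratios within the 4 embryos were close, at 5.24, 5.17, 5.22 and 5.001. Bmp7 (chr2:172868012-172940321), which is needed for kidney and eye development, was at 0.293, 1.94, 0.503, 0.220 and 0.360 CPM in control and at 21.8, 19.8, 18.3 and 23.4 CPM with doxorubicin. Het was the high library in control and its ratio of 3.29 was the smallest, against 4.94 to 6.21 in WT and KO. The log2 fold change was 5.26 ± 0.50 (adjusted p = 6.99e-05).

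Bmp8a and Bmp8b, neighbouring genes with near-identical sequence and therefore uncertain apart, both rose. Bmp8a was at 0.635, 0.662, 0.704, 1.10 and 0.810 CPM in control and at 9.49, 12.1, 9.64 and 10.7 CPM with doxorubicin. The groups did not overlap and the log2 fold change was 3.76 ± 0.25 (adjusted p = 1.81e-05). Bmp8b was at 0.244, 0.372, 1.16, 0.220 and 0.135 CPM in control and at 1.84, 6.402, 3.34 and 1.56 CPM with doxorubicin, with Het the highest treated library. Its log2 fold change was 2.82 ± 0.67 (adjusted p = 0.00648), and the call was lost without Het, KO embryo 2 or WT (adjusted p = 0.0322, 0.0249 and 0.0262).

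Bmp6, a regulator of hepcidin and iron in the liver, was at 1.86, 4.63, 3.67, 1.60 and 0.720 CPM in control and at 9.24, 11.99, 9.03 and 8.71 CPM with doxorubicin. All treated libraries were higher than all untreated ones. In the model with genotype the log2 fold change was 2.01 ± 0.43 (adjusted p = 0.00395), lost without Het, KO embryo 2 or WT (adjusted p = 0.0106, 0.0369 and 0.0199). Bmp3, which opposes the bone-forming BMPs, had 0, 1, 6, 2 and 2 counts in control and 59, 30, 62 and 77 with doxorubicin, a log2 fold change of 4.85 ± 0.58 (adjusted p = 0.000187). Its highest untreated library, KO embryo 1, was at 0.302 CPM and its lowest treated library, Het, at 1.52 CPM.

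Bmp5 went the other way. It was at 11.0, 0.538, 3.62, 6.83 and 2.97 CPM in control and at 2.83, 0.254, 1.78 and 1.74 CPM with doxorubicin. Het was the lowest library of both treatments, the groups overlapped, and all 4 embryos were lower with doxorubicin. Its log2 fold change was -1.45 ± 0.34 (adjusted p = 0.0061). The call was lost without Het, KO embryo 1, KO embryo 2 or WT (adjusted p = 0.0134, 0.0333, 0.0409 and 0.0439) and with the embryo block it was -1.60 ± 0.27 (adjusted p = 0.000986).

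Bmp4, the most abundant BMP in control, was at 52.3, 24.2, 54.1, 53.9 and 27.6 CPM in control and at 57.3, 36.2, 58.7 and 45.0 CPM with doxorubicin. The groups overlapped and the log2 fold change was 0.27 ± 0.23 (adjusted p = 0.335). Bmp15, an oocyte factor, had at most 5 counts in control and 6 with doxorubicin and did not pass the filter (exact permutation p = 0.0635). Bmp10, a heart factor, had at most 2 counts in any library.

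Of the GDFs, 4 rose at a low level. Gdf5, a joint factor, was at 0.244, 0.207, 0.201, 0.331 and 0.630 CPM in control and at 3.18, 5.39, 2.62 and 4.35 CPM with doxorubicin, without overlap, and its log2 fold change was 3.58 ± 0.45 (adjusted p = 0.000243). Gdf3, a factor of pluripotent cells, had 0, 2, 0, 4 and 0 counts in control and 20, 124, 16 and 17 with doxorubicin, with Het far above the others. The log2 fold change of 4.73 ± 0.92 passed (adjusted p = 0.00209), but not without Het, KO embryo 1 or WT (adjusted p = 0.0178, 0.018 and 0.0108).

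Gdf7 was at 0.440, 0.124, 0.251, 0.551 and 0.135 CPM in control and at 0.993, 2.08, 1.17 and 1.38 CPM with doxorubicin, a log2 fold change of 2.22 ± 0.54 (adjusted p = 0.00748). Gdf9, best known from the oocyte, was at 0.635, 0.786, 0.302, 0.496 and 1.04 CPM in control and at 1.94, 2.08, 2.01 and 1.70 CPM with doxorubicin, a log2 fold change of 1.54 ± 0.38 (adjusted p = 0.00806). In neither gene did the groups overlap. Both calls were lost without Het, KO embryo 1, KO embryo 2 or WT, with adjusted p between 0.0146 and 0.0491 for Gdf7 and between 0.0261 and 0.0657 for Gdf9.

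Gdf6, a relative of Gdf5, was at 8.75, 3.23, 18.1, 6.61 and 2.88 CPM in control and at 23.0, 15.9, 24.96 and 29.4 CPM with doxorubicin. KO embryo 1 was high in control, within the treated range, and all 4 embryos were higher with doxorubicin. The fitted log2 fold change was 1.69 ± 0.47 (adjusted p = 0.0144), and it passed with the embryo block at 1.56 ± 0.30 (adjusted p = 0.00223), without KO embryo 1 (adjusted p = 0.00656) and without KO embryo 3 (adjusted p = 0.00227). Gdf10 was at 0.270 to 1.42 CPM in control and 1.65 to 2.24 CPM with doxorubicin (log2 fold change 1.20 ± 0.38, adjusted p = 0.0243), and passed without KO embryo 3 (adjusted p = 0.00632).

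Gdf11, a close relative of myostatin, was at 19.3, 30.5, 20.3, 17.5 and 33.0 CPM in control and at 20.9, 32.8, 19.1 and 16.1 CPM with doxorubicin. Het and KO embryo 3 were the high libraries, and the values of an embryo hardly differed between treatments, with log2 ratios of 0.12, 0.10, -0.09 and -0.12. The log2 fold change was -0.18 ± 0.23 (adjusted p = 0.536). Mstn, which encodes myostatin, had at most 12 counts in a library and did not pass the filter (exact permutation p = 0.81). Gdf2 had 1 count in 1 library, and Gdf1, which lies within the span of Cers1 on the same strand, had 0 counts in every library.

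Nodal and its inhibitor Lefty2, which pattern the early embryo, were at or near 0 without treatment. Nodal had 0, 2, 0, 0 and 2 counts in control and 29, 17, 46 and 28 with doxorubicin. The groups did not overlap, the treated libraries were at 1.44, 0.864, 2.56 and 1.28 CPM, and the log2 fold change was 5.15 ± 0.78 (adjusted p = 0.00056). Lefty2 had 0 counts in every control library and 8, 12, 12 and 14 with doxorubicin, at least 20.2-fold higher against the floor of 3 counts. It did not pass the filter (exact permutation p = 0.0159, the smallest possible with the libraries taken as independent). Lefty1, a near-identical neighbour, was at 0.733, 0.951, 1.11, 1.27 and 1.53 CPM in control and at 0.993, 2.08, 0.613 and 0.413 CPM with doxorubicin. It was higher with doxorubicin in WT and Het and lower in both KO embryos, and the log2 fold change was -0.31 ± 0.51 (adjusted p = 0.624). When every gene with at least 1 count was tested, Lefty2, Inhbc and Inhbe passed (adjusted p = 0.00134, 0.00078 and 0.00757).

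Amh, the hormone that removes the Müllerian duct in male embryos, was at 0.391, 0.662, 0.352, 0.386 and 1.31 CPM in control and at 1.89, 8.89, 2.01 and 1.56 CPM with doxorubicin. The groups did not overlap and Het was the highest treated library. In the model with genotype the log2 fold change was 2.12 ± 0.57 (adjusted p = 0.0121), and it passed with the embryo block at 2.74 ± 0.37 (adjusted p = 0.00034) and without KO embryo 3 (adjusted p = 9.17e-05).

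Genotype was compared next, to ask whether the ligands depend on Sall2. Sex differed in part with genotype, since KO embryos 1 and 3 were male by their Y-linked counts (1551 to 6397 per library) and WT, Het and KO embryo 2 were not (0 to 4), and its part was not tested. No ligand gene passed between KO and WT over both treatments, and 0 of all 14883 genes tested passed (0%) in edgeR. Sall2 itself, at -0.99 ± 0.23, did not pass in this fit either. The lack of calls therefore does not show that the ligands are alike in KO and WT. DESeq2 called 0 ligand genes and 3 genes in all. At an unadjusted p under 0.05 edgeR gave 1 of 24 ligand genes and 84 of all genes (0.564%), a smaller share than this threshold gives by chance. The 1 gene was Bmp5, with a log2 difference of KO minus WT of -1.03 ± 0.37. It was at 11.0 CPM in WT control and 2.97 to 6.83 in KO control, and at 2.83 CPM in WT and 1.78 and 1.74 in KO with doxorubicin, so KO lay below WT in both treatments, with 1 WT embryo. The differences of the 24 genes lay between -1.03 and 0.80, with a median of 0.02, and the median over all genes was also 0.02.

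The most abundant ligands gave differences of KO minus WT of 0.09 ± 0.48 for Tgfb3, -0.08 ± 0.31 for Inhba, -0.01 ± 0.37 for Inhbb, -0.09 ± 0.33 for Tgfb1, -0.18 ± 0.39 for Tgfb2 and -0.17 ± 0.28 for Bmp4 (log2 ± SE, adjusted p = 1.0). The SEs of 0.28 to 0.48 are those of a comparison with 1 WT embryo. Bmp4, Gdf10 and Gdf2 lie on chromosome 14, as Sall2 does, at 5.92, 18.4 and 18.4 Mb from it, and Gdf10 differed by -0.82 ± 0.46. In control alone, 0 of 20 ligand genes and 0 of 14470 genes passed, with 0 and 10 at an unadjusted p under 0.05 (edgeR). With 1 factor of unwanted variation removed (RUVg) and edgeR's exact test, 0 ligand genes and 125 of all genes (0.864%) passed, and 3 ligand genes and 1920 of all genes (13.3%) had an unadjusted p under 0.05.

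Het and WT did not differ at the threshold in any of the 24 genes, with 3 of them and 3446 of all genes (23.2%) at an unadjusted p under 0.05. These were Bmp5 at -3.95 ± 0.55, Inha at 2.08 ± 0.76 and Bmp4 at -0.88 ± 0.34 on the log2 scale of Het minus WT (edgeR adjusted p = 0.207 for each). DESeq2 called Bmp5 (adjusted p = 3.06e-07) and 1.14% of all genes. Without KO embryo 3, Bmp5, Inha and Tgfb2 passed in edgeR (adjusted p = 0.000533, 0.000491 and 0.00149), as did 19.9% of all genes. With the embryo as a random block in limma, which takes both libraries of an embryo together, none of them passed (adjusted p = 0.551, 0.551 and 0.575). Het is 1 embryo and carries the interferon state given above, whose part was not tested.

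The response to doxorubicin was not shown to differ between KO and WT. Of 27 ligand genes and 16656 genes tested for the interaction, 0 passed, and 0 and 58 had an unadjusted p under 0.05 (edgeR). For Bmp2 the response in KO minus that in WT was -0.35 ± 0.53, for Bmp7 -0.36 ± 0.77, for Bmp8a -0.34 ± 0.68, for Inhba 0.06 ± 0.72 and for Tgfb3 0.23 ± 1.11 on the log2 scale. These intervals are wide, since WT has 1 library per treatment, and this model did not pair the libraries of an embryo. With the embryo as a block still no ligand gene passed. More of the ligand genes and of all genes then had an unadjusted p under 0.05.

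The genes that receive, carry and oppose the ligands were then read from lists chosen by function, with earlier results of these data known. Of 6 type I receptor genes tested, 4 fell and 0 rose. They were Bmpr1b (log2 fold change -1.70 ± 0.34, adjusted p = 0.00289) and Bmpr1a (-1.22 ± 0.27, adjusted p = 0.00512), which bind BMPs, Acvr1b (-1.21 ± 0.20, adjusted p = 0.00103), which binds activins and Nodal, and Acvrl1 (-1.06 ± 0.21, adjusted p = 0.00253). Tgfbr1, the type I receptor of TGF-beta, was at 74.7 ± 28.9 CPM in control and 120 ± 36.1 with doxorubicin (adjusted p = 0.048), and with the embryo block it passed at 0.53 (adjusted p = 0.00364), while Acvr1 joined those that fell (adjusted p = 0.000671).

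Of 5 type II receptors 2 rose, Amhr2, the receptor of anti-Müllerian hormone (4.05 ± 0.58, adjusted p = 0.000455, from 0.109 to 2.17 CPM), and the activin receptor Acvr2b (1.77 ± 0.27, adjusted p = 0.000696). With the embryo block 3 rose and 2 fell, the latter Tgfbr2 and Bmpr2 (adjusted p = 0.000528 and 0.00291). Among 5 co-receptors Bambi, a decoy without a kinase, rose (1.29 ± 0.18, adjusted p = 0.00045) and betaglycan, Tgfbr3, fell (-0.94 ± 0.22, adjusted p = 0.00631). Of 8 Smads only Smad4 passed, at -1.51 ± 0.16 (adjusted p = 0.000107), from 88.3 ± 16.5 to 30.6 ± 2.90 CPM, and Smad5 joined it with the embryo block (adjusted p = 0.00311).

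Secreted antagonists of BMPs moved in both directions, where 21.9% of all genes rose and 20.2% fell. Of 13 secreted antagonists tested 4 rose, Chrdl2 (5.40 ± 0.83, adjusted p = 0.000399, with 1 count in all control libraries and 10 to 22 in each with doxorubicin), Chordin, Chrd (3.36 ± 0.31, adjusted p = 6.46e-05), Noggin, Nog (3.19 ± 0.49, adjusted p = 0.000724), and Nbl1 (1.04 ± 0.21, adjusted p = 0.00274). Nog went from 1.53 ± 0.91 to 13.6 ± 2.95 CPM and Chrd from 5.52 ± 2.11 to 54.8 ± 8.12 CPM. Gremlin, Grem1, fell from 105 ± 31.7 to 32.5 ± 4.24 CPM (-1.65 ± 0.21, adjusted p = 0.0003). With the embryo block 5 rose and 4 fell, near the shares of all genes, 30.6% and 28.8%. Follistatin, Fst, the antagonist of activins, was at 99.3 ± 48.2 CPM in control and 84.7 ± 20.2 with doxorubicin (adjusted p = 0.808).

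Of 15 genes of latency and processing 3 rose and 1 fell. With the embryo block 4 rose and 3 fell, no larger shares than the 30.6% and 28.8% of all genes. Tll2, a protease related to Bmp1 (5.29 ± 0.40, adjusted p = 2.58e-05), Pcsk6, a convertase that cuts Nodal (2.36 ± 0.57, adjusted p = 0.00731), and Itgb8, an integrin chain that frees TGF-beta (1.17 ± 0.27, adjusted p = 0.00598), rose. Lrrc32, which holds latent TGF-beta on the cell surface, fell from 330 ± 144 to 46.6 ± 14.6 CPM (-2.74 ± 0.34, adjusted p = 0.000263).

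Known targets of both branches were mixed or lower. Of 9 TGF-beta targets 5 fell and 0 rose, with a median log2 fold change of -0.84, namely Ctgf (-3.35 ± 0.45, adjusted p = 0.000355), Cdkn2b (-2.17 ± 0.21, adjusted p = 7.96e-05), Pmepa1 (-1.94 ± 0.23, adjusted p = 0.000205), Snai1 (-1.67 ± 0.23, adjusted p = 0.000397) and Skil (-0.84 ± 0.15, adjusted p = 0.00147). Of 8 BMP targets 3 rose, Hey1 (2.80 ± 0.30, adjusted p = 0.000124), Id4 (2.06 ± 0.39, adjusted p = 0.00207) and Id2 (1.16 ± 0.24, adjusted p = 0.00358), and Id3 fell (-2.24 ± 0.14, adjusted p = 1.29e-05), from 197 ± 14.2 to 41.6 ± 1.23 CPM. Id1, the target most often used as a readout, was at 56.4 ± 5.56 and 76.0 ± 5.19 CPM (adjusted p = 0.021, and 0.00942 with the embryo block). The shares of all genes that rose and fell, 21.9% and 20.2%, are the background to the counts of all these lists. With the embryo block the shares are 30.6% and 28.8%. Amhr2, Chrdl2 and Tll2 were near 0 in control and passed the filter only through the doxorubicin libraries. Of the 2020 tested genes under 1 CPM in control 66.5% rose, so these rises say little of their lists.

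**Figure D5:**
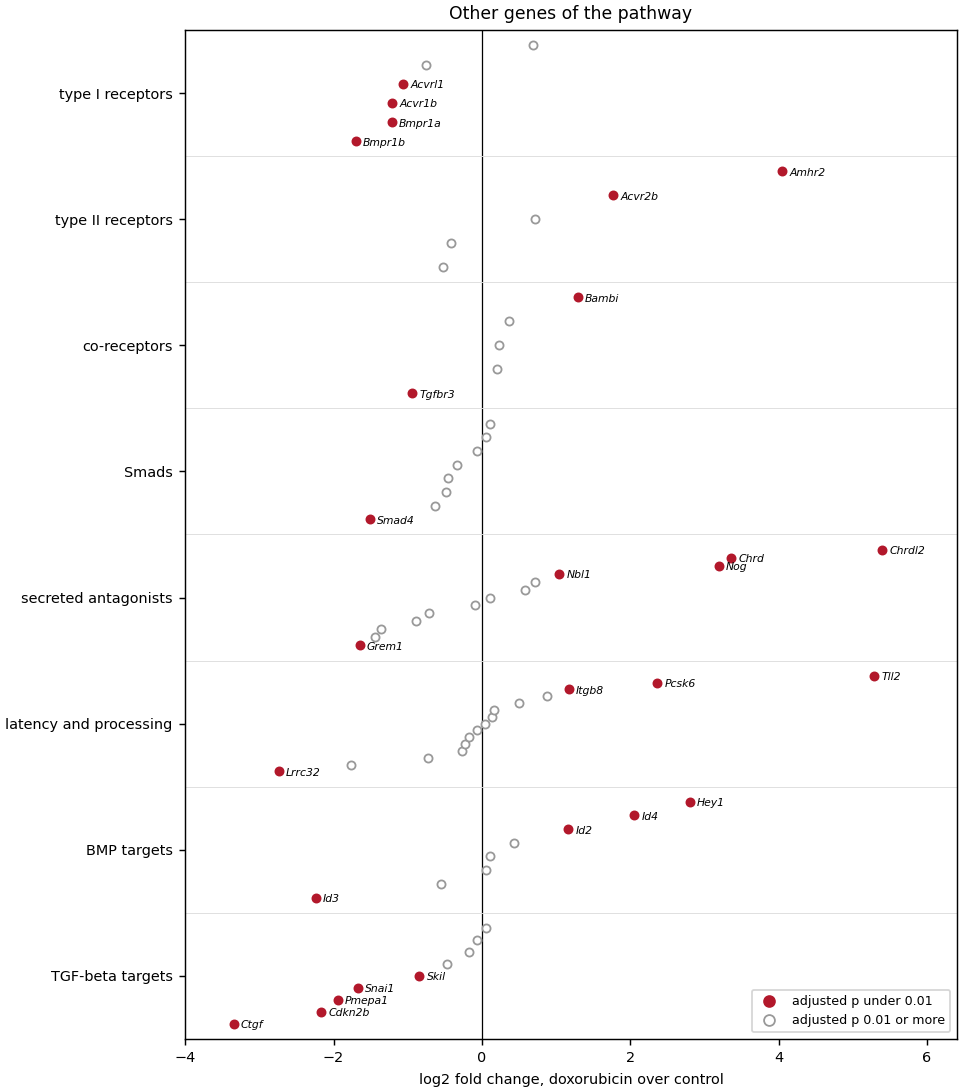
Log2 fold change with doxorubicin of the tested receptors, Smads, antagonists, latency and processing genes and targets, 1 point per gene, filled red and named where the adjusted p was under 0.01. The 4 named type I receptors and 5 named TGF-beta targets lie to the left of 0, and 4 of the 5 named secreted antagonists lie to the right.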

How the data were processed

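Libraries were made from rRNA-depleted RNA with a stranded kit. Per the labels and the study's methods, the authors merged 4 FASTQ files per library, aligned the reads to mm10 with HISAT2, obtained gene counts with HTSeq (union mode, iGenomes annotation), and deposited them raw. The strand setting of the counting is not given in the sources used here, so overlapping and antisense genes are uncertain. Counts were analysed with edgeR 4.0.16 in R 4.3.3 (TMM, filterByExpr, quasi-likelihood test, two-sided, FDR under 0.01), with genotype and treatment as terms. A run on simulated counts drew each library independently, without shared embryos or the interferon state. It does not bear on either of these features. DESeq2 1.42.0 and limma 3.58.1 were alternatives. RPKM used the exon length in GENCODE for GRCm38. The embryo numbers in the labels pair control and doxorubicin. Deviations from the mean of the 4 paired embryos correlated at 0.521 to 0.742 within each pair. Het stood apart in both treatments, which can raise these values, and unmatched pairs were not computed. The difference between KO embryos 1 and 2, which leaves Het out, correlated at 0.385 between treatments. The pairing therefore rests mainly on the labels. In these libraries 3 counts correspond to 0.124 to 0.193 CPM, and intervals cover counting error only. Every ligand gene over 3 counts in a library was to be named, with full statistics for those called and the 12 highest in RPKM, and at most 6 called genes of a pathway list. The members, lists and tests were chosen with earlier results of these data known. From the TGF-beta target list 1 gene is not reported here and was left out of its counts.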

Additional observations from a re-analysis of the deposited data

Results flagged for a closer look

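Single libraries lay apart from the others of their treatment in 5 of 48 sets of values (24 ligand genes in 5 control and 4 doxorubicin libraries, log2 CPM), where chance gives about 1 in 20. The measure is the gap to the nearest library divided by the whole range. The share over all genes tested was not counted, so this count says little of the ligand genes as such. With doxorubicin, Het embryo 1 was the highest library for Inha (0.966, at 23.8 CPM against 5.82 to 6.11), Gdf3 (0.89, at 6.30 CPM against 0.779 to 0.993) and Amh (0.859, at 8.89 CPM against 1.56 to 2.01), and the lowest for Tgfb2 (0.892, at 77.5 CPM against 143 to 154). WT was the highest for Gdf10 (0.948, at 2.24 CPM against 1.65 to 1.68). Het embryo 1 with doxorubicin was also the library with the highest interferon markers of its treatment, at 1514 CPM against 330 to 417, and their part in these values was not tested.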

How the results depend on the processing

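Against the 13 ligand genes that changed with doxorubicin, 7 passed at an FDR under 0.001 (22.8% of all genes) and 4 with the KO libraries only (12.8%), and between 7 (without Het, 34.5%) and 20 (without KO embryo 3, 60.9%) when an embryo was left out. With the embryo as a replicate block 19 passed, the 13 among them. DESeq2 called 18, and 51.8% of all genes. The other scalings, filters and terms gave between 13 and 17 at the same threshold. The cause of the difference was not tested. Bmp2, Bmp3, Bmp7 and Bmp8a kept their call in all 17 alternatives, and Gdf5, Inhba and Nodal lost it only with the KO libraries only. For Het against WT, 0 genes became 1 in DESeq2 and 0 to 3 when an embryo was left out (3 without KO embryo 3). No called gene changed direction. With the embryo as a random replicate block in limma, 0 genes passed for KO or Het against WT. Counting every gene with at least 1 count moved the median of all genes from -0.02 to 0.23. Depth limits the genes under about 1 CPM.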
